A study of Mus musculus with 9 samples.

Results

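Microglia, the resident phagocytes of the brain, were compared at an early and a late time after they had been fed dead cells. The 6 arrays described are the 3 samples labelled as phagocytic at 3 h (Ph3h) and the 3 labelled as phagocytic at 24 h (Ph24h), of 9 arrays in the series, and they were chosen by these labels alone. The other 3 arrays are of control microglia at time 0, and their levels are given beside the fed ones without a test. All cultures were primary microglia from brains, without olfactory bulb, cerebellum and meninges, of newborn (postnatal day 0 to 1) fms-EGFP mice, in which the promoter of Csf1r, the receptor for colony-stimulating factor 1, drives green fluorescent protein. They were grown for about 14 d with GM-CSF at 5 ng/ml, a growth factor that promotes microglial proliferation and which all 3 groups therefore share, and settled for at least 24 h. Ph3h and Ph24h cultures then received about 1 dead cell per microglial cell of SH-SY5Y, a human neuroblastoma line stained with the membrane dye CM-DiI. Death of the SH-SY5Y cells had been induced with staurosporine at 3 µM for 4 h, and the floating fraction was used. There was no culture that stayed unfed for a further 3 h or 24 h, so time since feeding and time in culture cannot be told apart. In the bulk RNA of a culture, fewer cells of a type and less RNA per cell cannot be told apart either.

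The clearance of apoptotic cells, called efferocytosis, begins with recognition by surface receptors, goes on with engulfment and degradation in lysosomes, and is accompanied by changes in transcription. Signals received at the surface act first on immediate early genes, whose transcription needs no new protein and is usually brief. Slower programs, such as those for metabolism, the cell cycle and secreted proteins, follow later. The comparison of Ph24h with Ph3h asks which transcripts belong to the early and which to the late state of fed cultures.

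Total RNA was labelled with 1 dye, Cy3, and measured on mouse oligonucleotide arrays with probes of 60 bases. A level is the log2 intensity of a probe relative to the 75th percentile of its own array, so levels below 0 are dimmer than that percentile, and levels of different genes are not comparable. That percentile lay between 185 and 211 intensity units on Ph3h arrays, between 156 and 161 on Ph24h arrays and between 356 and 473 on control arrays. Between 25638 and 27964 probes were well above background on Ph3h arrays and between 26077 and 26477 on Ph24h arrays, and no spot was saturated. The arrays came from 2 slides, one with the third replicate of every group and the other with the rest. Over the probes kept, the distance between any Ph3h and any Ph24h array (179 to 193) was larger than between arrays of the same group (106 to 119 for Ph3h and 134 to 145 for Ph24h). Markers of microglia and macrophages were well above background on all 6 fed arrays for 20 of 21 genes, the exception being P2ry12, a receptor for adenosine diphosphate.

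Fed microglia differed between both times in 10692 of 24101 genes tested, or 44.4%, at a Benjamini-Hochberg adjusted p below 0.05 in limma. Of these, 4913 genes were higher at 24 h (20.4% of all tested) and 5779 were lower (24.0%), and the median difference over all genes was 0.04 on the log2 scale. The arrays of both groups did not overlap for 4861 of the genes called higher and 5757 of the genes called lower. Over all 24101 genes, called or not, all Ph24h arrays lay above all Ph3h arrays for 6927 and below them for 6791. The balance of the directions depended on how arrays were scaled, with 22.6% of called genes higher after median scaling and 66.8% higher after scaling to all spike-in probes, against 46.0% here. Large differences were fewer. With genes that were not above background in one group set at their bound, 1226 genes rose and 1263 fell at least 2-fold, 210 rose and 253 fell at least 4-fold, and 27 rose and 11 fell at least 16-fold. In all, 156 genes called higher were well above background on every Ph24h array and on no Ph3h array, and 202 genes called lower showed the opposite. A further 151 of the called genes were well above background on no fed array, and were kept for their signal on control arrays. A rule of size, over all genes and within 55 lists, gave 219 genes to name, and other genes were named after their values were seen. In the lists, counts are read against 20.4% higher and 24.0% lower over all genes. A gene above background in a single group passed the filter through that group, so the filter helped to set its direction. List medians use the measured differences, also for genes below background, and not the bounds unless stated. The plot of mean levels sets all genes at 24 h against 3 h.

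**Figure D1:**
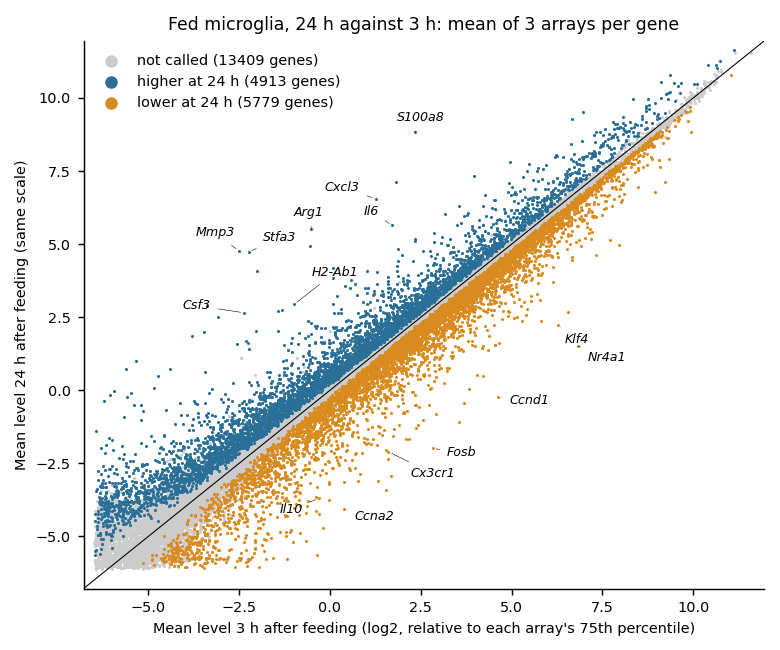
Mean level of each of 24101 genes on 3 Ph24h arrays (vertical axis) against 3 Ph3h arrays (horizontal axis), both log2 relative to the array's 75th percentile; blue genes were called higher at 24 h (4913), orange genes lower (5779) and gray genes were not called (13409), and the line marks equal levels. Mmp3, Stfa3, S100a8 and Arg1 lie far above the line and Nr4a1, Fosb, Ccnd1 and Ccna2 far below it.

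The largest rises and falls were ranked only among called genes whose arrays did not overlap between both groups. The 12 largest rises from 3 h to 24 h included those of Mmp3, S100a8, Arg1, Ecel1, Mgarp and Cxcl3 and of several stefin A genes. Mmp3, which encodes stromelysin-1, a protease of the extracellular matrix, was at -1.84, -2.02 and -3.65 at 3 h and 4.57, 4.91 and 4.82 at 24 h. Its rise of 7.27 ± 0.45 on the log2 scale (SE of the fit) was 155-fold (adjusted p = 1.53e-05). Replicate 3 at 3 h lay below the others, and only 2 Ph3h arrays were well above background. S100a8, which encodes a calcium-binding alarmin of myeloid cells, was at 2.32, 2.45 and 2.24 at 3 h and 8.75, 8.99 and 8.78 at 24 h (90.8-fold, adjusted p = 4.22e-07). The control mean of S100a8 was 2.39, within the range of the 3 h arrays. Arg1, which encodes the arginine-cleaving enzyme arginase 1, was at -0.96, -0.21 and -0.36 at 3 h and 5.35, 5.63 and 5.58 at 24 h (65.4-fold, adjusted p = 1.72e-06). Ecel1, a relative of endothelin-converting enzyme known from neurons, rose 50.6-fold and was well above background on no control array, 1 Ph3h array and 3 Ph24h arrays. Mgarp and Cxcl3, which were also among the 12 largest rises, are described with their groups.

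Genes of the stefin A family, inhibitors of cysteine proteases such as cathepsins, made up 4 of the named genes with the largest rises. Stfa3 was at -2.17, -1.97 and -2.56 at 3 h and 4.69, 4.82 and 4.68 at 24 h, a rise of 6.96 ± 0.14 (125-fold, adjusted p = 4.53e-07). Gm5483, which RefSeq now lists as Cstdc4, rose 67.6-fold, Stfa2l1 48.2-fold, and 2010005H15Rik, now listed as Csta2, 39.9-fold. That all 3 Ph24h arrays lay above all Ph3h arrays for each of the 4 was required by the rule that chose them. These genes are related in sequence, so that their probes may share transcripts. Of 60 bases, the probes of Stfa3 and Gm5483 had 30 in common at the best offset and shared a run of 22. Those of Stfa3 and Stfa2l1 had 20 in common and shared a run of 7. How far each value belongs to its own gene is uncertain. Among the 12 largest rises 2 more genes carried only an identifier and are not named. A run of 25 bases was shared by the probes of 2010005H15Rik and of a gene in this pair.

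The largest falls were those of genes with several different functions. Besides Nr4a1, Fosb, Klf4, Egr1, Ccnd1 and Ccna2, which are described with their groups, they included Asb2, a substrate-binding subunit of a ubiquitin ligase, which was at 1.59, 1.51 and 1.54 at 3 h and -3.76, -4.02 and -2.42 at 24 h. Its fall of 4.95 ± 0.38 was 30.9-fold (adjusted p = 4.34e-05), and only 1 of 3 Ph24h arrays was well above background. Fgd2, an exchange factor for the small GTPase Cdc42, fell 24.9-fold from 3.61, 3.46 and 3.60 to -1.55, -1.03 and -0.66. Srpk3, a kinase of splicing factors, fell 24.5-fold. Pbk, a kinase of mitotic cells, was at -0.67, -0.49 and -0.85 at 3 h and -6.03, -6.08 and -3.38 at 24 h, a 22.5-fold fall (adjusted p = 0.0012) with a standard error of 0.67 and only 1 of 3 Ph24h arrays well above background. Another gene among the 12 largest falls carried only an identifier.

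Transcription factors of the immediate early class were mostly lower at 24 h than at 3 h. Of 20 measured, 13 fell and 4 rose, with a median difference of -1.23 against 0.04 over all genes. The largest fall of any named gene was that of Nr4a1, which encodes the orphan nuclear receptor Nur77. It was at 6.95, 6.75 and 6.82 at 3 h and at 0.75, 1.54 and 2.22 at 24 h, a fall of 5.33 ± 0.32 (40.3-fold, adjusted p = 1.33e-05), and the control mean was -0.09. Its relatives moved alike. Nr4a2 fell from 3.95, 3.59 and 3.91 to -0.08, -0.07 and 0.23 (13.8-fold), and Nr4a3, well above background on 3 Ph3h arrays and on no control or Ph24h array, fell at least 6.78-fold.

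Fosb, a partner in the AP-1 transcription factor, was at 2.74, 2.82 and 2.92 at 3 h and -2.31, -2.34 and -1.31 at 24 h (28.1-fold lower, adjusted p = 1.35e-05), with a control mean of -3.03. Egr1, a zinc finger factor induced by growth signals, fell 15.5-fold, from 1.80, 1.30 and 1.72 to -2.61, -2.25 and -2.19, and its control mean was -2.20. The AP-1 members Junb and Fos fell 6.67-fold and 6.48-fold. The 4 members that rose were Myc (2.91-fold), Fosl1 (2.44-fold), Ier3 (1.83-fold) and Jun (1.36-fold), the last of which was not called after median scaling. Myc, a driver of growth, was at -2.52, -2.36 and -2.66 at 3 h and -0.92, -1.10 and -0.90 at 24 h, both below its control mean of 0.62.

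The sequences before the start sites of Nr4a1 and Nr4a2 are shown because these relatives changed together. They are the 250 bases before the RefSeq start (GRCm38.p6), read on the strand of the gene, with matches to TGACG, the core of the element bound by cAMP-responsive factors, in capitals on either strand. Nr4a1 lies at chr15:101266596-101266845 on the plus strand and Nr4a2 at chr2:57124004-57124253 on the minus strand.
Nr4a1: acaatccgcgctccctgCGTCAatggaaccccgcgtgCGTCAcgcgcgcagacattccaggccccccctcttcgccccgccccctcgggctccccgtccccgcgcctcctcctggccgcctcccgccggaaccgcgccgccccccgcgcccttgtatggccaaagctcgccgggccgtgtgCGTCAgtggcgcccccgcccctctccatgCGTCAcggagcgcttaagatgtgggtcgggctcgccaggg
Nr4a2: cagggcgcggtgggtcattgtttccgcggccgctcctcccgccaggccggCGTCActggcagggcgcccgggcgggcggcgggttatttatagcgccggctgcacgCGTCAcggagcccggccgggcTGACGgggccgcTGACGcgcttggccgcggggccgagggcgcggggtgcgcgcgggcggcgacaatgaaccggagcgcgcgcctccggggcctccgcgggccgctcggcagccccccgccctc
Both windows held 4 matches. Of 15 immediate early genes with a promoter in the table, 8 held at least 1 match, beside 17.9% of 27025 promoters of the same length. Such a match is a description of letters and not a binding site, and base composition was not matched.

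Feedback regulators of signaling moved in both directions. Among 15 phosphatases and other inhibitors of MAP kinases 7 fell and 3 rose. Dusp2 and Dusp5, nuclear phosphatases of MAP kinases, fell 6.22-fold and 6.12-fold, and Dusp1 fell 2.68-fold. Dusp6, a cytoplasmic phosphatase of ERK, rose instead, from 0.63, 0.79 and 0.67 to 3.56, 3.74 and 3.64 (7.72-fold, adjusted p = 8.43e-07), and its control mean of 2.28 lay between both times. Of 12 Kruppel-like factors 5 fell and 3 rose. Klf4 was at 6.33, 6.23 and 6.26 at 3 h and 2.07, 2.24 and 2.39 at 24 h (16.4-fold lower) and Klf2 fell 4.20-fold, while Klf15 rose 2.75-fold. Subunits and feedback inhibitors of NF-κB, a central inducer of inflammatory genes, were lower in 14 of 18 cases and higher in none, with a median of -0.71. Nfkbid, a nuclear inhibitor of the factor, fell 3.57-fold and Nfkb1, a subunit, 2.63-fold. Nfkbia, the main cytoplasmic inhibitor, was not called, at 7.02, 7.11 and 6.95 at 3 h and 6.99, 7.20 and 7.14 at 24 h. One member was called higher after quantile normalization and 2 after scaling to all spike-in probes.

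In a list of 7 CXC chemokines, most of them attractants of neutrophils, all 6 measured were higher at 24 h. Their median difference was 2.39, and 20.4% of all genes were called higher. Cxcl3 was at 1.24, 1.17 and 1.35 at 3 h and 6.44, 6.77 and 6.45 at 24 h, a rise of 5.30 ± 0.12 (39.4-fold, adjusted p = 6.03e-07). Cxcl1 was at 3.53, 3.65 and 3.44 and 6.13, 6.54 and 6.27 (6.83-fold), and Cxcl2 rose 4.01-fold. Control means were -1.49, -0.40 and 1.31 for Cxcl3, Cxcl1 and Cxcl2, below every fed array. Cxcl5 was well above background on every Ph24h array and on no other, and rose at least 4.85-fold. It was kept through those arrays alone, so the filter left it no way to count as lower. Pf4, platelet factor 4, rose 3.55-fold. The other, Ppbp, was well above background on 2 Ph24h arrays and on no Ph3h array, and was not called on slide 1 alone.

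Other cytokines were split between both times. Il6, the ligand of the interleukin-6 receptor, was at 1.49, 2.00 and 1.65 at 3 h, with a control mean of 1.46, and at 5.41, 5.78 and 5.73 at 24 h, a rise of 3.92 ± 0.17 (15.1-fold, adjusted p = 2.86e-06). Csf3, which encodes granulocyte colony-stimulating factor, was well above background on no control array, at -2.70, -2.14 and -2.23 at 3 h and at 2.41, 2.89 and 2.65 at 24 h (32.1-fold, adjusted p = 3.54e-05). Il1b, which encodes interleukin-1β, was at 6.28, 6.21 and 6.28 at 3 h and 7.90, 8.08 and 8.07 at 24 h (3.39-fold), with a control mean of 3.04. All 3 genes had higher levels on every Ph24h array than on any Ph3h array. Il1f6 and Il1f9, members of the interleukin-36 branch, rose, Il1f9 by 9.67-fold from a level well above background on 2 Ph3h arrays and Il1f6, above background on Ph24h arrays alone, by at least 12.5-fold, while Il1rn, the antagonist of the interleukin-1 receptor, fell 4.48-fold from 3.45, 3.55 and 3.66 to 1.47, 1.30 and 1.39. The interleukin-1 list as a whole had 4 members higher and 7 lower of 17, but 7 higher and 4 lower after scaling to all spike-in probes.

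Tnf, which encodes tumor necrosis factor, changed little beside these. It was at 3.85, 4.12 and 4.00 at 3 h and 4.54, 4.95 and 4.77 at 24 h, a rise of 0.76 ± 0.12 (1.70-fold, adjusted p = 0.00129), and its control mean was 4.83. Of 22 genes of the tumor necrosis factor superfamily 10 rose and 7 fell. Tnfsf9, the ligand of 4-1BB, rose 3.84-fold, whereas Ltb, lymphotoxin β, fell 5.45-fold, and Tnfrsf12a, the receptor of TWEAK, 4.86-fold. The split in this list was 6 higher and 9 lower after median scaling. In the interleukin-6 family Osm, oncostatin M, fell 2.82-fold, with 3 of 14 members higher and 6 lower. Il10, an anti-inflammatory cytokine, was at -0.19, -0.23 and -0.47 at 3 h and -3.79, -3.66 and -3.64 at 24 h, a 10.5-fold fall (adjusted p = 1.83e-06) to well above background on 1 Ph24h array. Csf1, the main growth factor of macrophages, fell 2.12-fold, and Csf1r, its receptor, whose promoter drives the green reporter in these mice, rose 1.19-fold, a rise that was not called after median scaling, after scaling to the spike-in probes without 1 that departed from the rest, or on slide 1 alone. Of CC chemokines, which attract monocytes and lymphocytes, 5 of 10 rose, among them Ccl3 (6.22-fold) and Ccl5 (4.14-fold), and Ccl12 fell 2.93-fold.

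Genes induced by type I interferons were lower at 24 h in nearly the whole list. Of 33 measured 31 fell and none rose, where 24.0% of all genes fell, with a median difference of -1.69. Cxcl10, a chemokine for T cells, was at 1.95, 2.44 and 2.11 at 3 h and -1.41, -2.09 and -1.46 at 24 h, a fall of 3.82 ± 0.20 (14.1-fold, adjusted p = 7.05e-06). Mx1, an antiviral GTPase, was at 0.02, -0.35 and 0.28 and -3.66, -4.47 and -3.11 (13.3-fold, with 2 Ph24h arrays well above background), and Ifit3, which binds viral RNA complexes, at 1.94, 1.80 and 2.30 and -0.69, -1.29 and -0.35 (6.91-fold). Their control means of 0.08, -0.55 and 1.85 lay above every Ph24h array. Ifit2 fell 6.59-fold. The genes not called were Ifitm3, at 3.01, 2.88 and 3.26 at 3 h and 3.19, 3.27 and 3.23 at 24 h, and Oas1g, which was above background in neither group. Ifnb1, which encodes interferon-β itself, was well above background on 1 Ph3h array and no Ph24h array, and no fold is given. After quantile normalization, with or without a normexp background correction, and in the authors' value table, 1 member of the list was called higher.

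Interferon-induced GTPases, which act on vacuoles of pathogens, fell in 11 of 17 cases and rose in none, with a median of -0.78. Gbp3 was at 2.40, 2.31 and 2.40 at 3 h and -0.41, -0.78 and -0.32 at 24 h (7.32-fold). Gbp11, well above background on all control and Ph3h arrays and on no Ph24h array, fell at least 11.9-fold, and Gbp9 fell 6.19-fold.

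The sequences before the starts of Cxcl1, Cxcl3, Cxcl10 and Ifit3 are shown because the first pair rose and the second pair fell. As before, they are 250 bases upstream of the RefSeq start (GRCm38.p6), read on the strand of the gene. Capitals mark sites for NF-κB in Cxcl1, Cxcl3 and Cxcl10, and the core of the interferon-stimulated response element (TTTC, any 2 bases and TTTC) in Cxcl10 and Ifit3, on either strand. The windows are chr5:90890995-90891244 (plus), chr5:90785851-90786100 (plus), chr5:92348890-92349139 (minus) and chr19:34583279-34583528 (plus).
Cxcl1: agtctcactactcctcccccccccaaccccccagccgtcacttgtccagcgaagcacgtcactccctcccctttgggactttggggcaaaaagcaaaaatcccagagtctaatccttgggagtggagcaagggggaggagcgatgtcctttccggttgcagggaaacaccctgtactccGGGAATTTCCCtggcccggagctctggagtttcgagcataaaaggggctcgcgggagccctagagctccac
Cxcl3: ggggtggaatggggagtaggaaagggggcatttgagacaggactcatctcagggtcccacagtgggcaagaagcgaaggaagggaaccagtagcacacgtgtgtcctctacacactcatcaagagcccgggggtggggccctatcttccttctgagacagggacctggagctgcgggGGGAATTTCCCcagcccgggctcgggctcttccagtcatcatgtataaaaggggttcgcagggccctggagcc
Cxcl10: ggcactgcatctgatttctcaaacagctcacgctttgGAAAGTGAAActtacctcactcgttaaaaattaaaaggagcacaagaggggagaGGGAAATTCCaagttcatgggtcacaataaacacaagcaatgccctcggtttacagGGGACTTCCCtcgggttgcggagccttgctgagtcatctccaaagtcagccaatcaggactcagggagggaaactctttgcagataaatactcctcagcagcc
Ifit3: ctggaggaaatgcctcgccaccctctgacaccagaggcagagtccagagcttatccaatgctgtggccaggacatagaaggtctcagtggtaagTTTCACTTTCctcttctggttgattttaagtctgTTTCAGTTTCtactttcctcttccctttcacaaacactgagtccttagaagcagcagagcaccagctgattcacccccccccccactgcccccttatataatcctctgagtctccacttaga
The chemokines Cxcl1 and Cxcl3 carried the same letters at their NF-κB site, read on both strands as a pair of overlapping matches, and Cxcl10, which fell, also held 2 such matches beside its interferon element. The NF-κB site was found in 3.75% of all promoters of this length and in 3 of 5 genes of the neutrophil-attracting chemokine list with a promoter in the table. The interferon element was found in 3.04% of all promoters and in 11 of 24 genes of the type I interferon list.

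**Figure D2:**
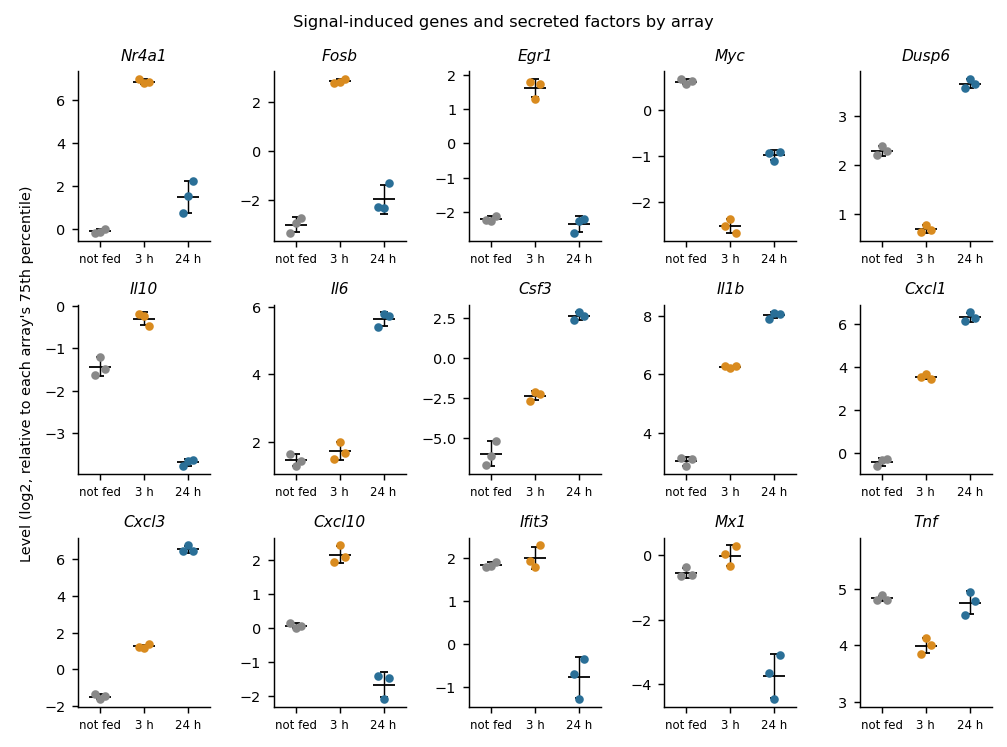
Levels of 15 signal-induced genes and secreted factors on each array (points; vertical axis, log2 relative to the array's 75th percentile, scaled per gene) in microglia not fed (gray), fed for 3 h (orange) and fed for 24 h (blue), with bars for the mean ± SD of 3 arrays. Nr4a1, Fosb and Egr1 stand above the other groups at 3 h, Il6, Csf3, Il1b, Cxcl1 and Cxcl3 are highest at 24 h, and Il10, Cxcl10, Ifit3 and Mx1 are lowest at 24 h.

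Alarmins and granule proteins of myeloid cells rose in 11 of 17 cases and fell in none, with a median of 1.03. After median scaling 10 were higher and 2 lower. Besides S100a8, Camp, the precursor of an antimicrobial peptide, rose 3.68-fold, S100a6 3.03-fold and Saa3, an acute-phase protein of macrophages, 2.88-fold. Saa3 was at 7.19, 7.55 and 7.24 at 3 h and 8.84, 8.80 and 8.91 at 24 h. The probe of S100a9, the binding partner of S100a8, was well above background on the Ph24h arrays alone, a rise of at least 1.63-fold. Elane, the elastase of neutrophils, was not called, at 3.05, 2.99 and 2.91 at 3 h and 3.38, 3.29 and 3.13 at 24 h, and Ngp, another granule protein of neutrophils, was above background on no fed array.

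Genes that respond to low oxygen were higher at 24 h in 18 of 28 cases and lower in 5, with a median of 1.04. The response is driven by the factor HIF1, whose α subunit is destroyed when prolyl hydroxylases can use oxygen. Mgarp, which encodes a mitochondrial protein, was at -3.15, -3.65 and -3.37 at 3 h and 3.04, 2.87 and 2.76 at 24 h, a rise of 6.28 ± 0.15 (77.6-fold, adjusted p = 6.46e-07). Egln3, one of the prolyl hydroxylases, was at -1.40, -1.45 and -1.48 and 2.76, 2.83 and 2.59 (17.9-fold). Ak4, a mitochondrial adenylate kinase, was at 0.12, 0.12 and -0.02 and 4.10, 4.29 and 4.16 (17.3-fold), and Ankrd37 rose 13.4-fold. The control means of these 4 genes (0.45, 0.53, 1.98 and 1.44) lay above every Ph3h array and below every Ph24h array.

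Adm, which encodes the vasodilator adrenomedullin, and Bnip3, a mitophagy receptor, rose 7.88-fold and 7.10-fold, and Hif1a itself was at 2.60, 2.92 and 2.80 at 3 h and 3.99, 4.03 and 4.00 at 24 h (2.34-fold). The 5 members that fell were Bhlhe40, Vegfa, Ndrg1, Pdgfb and Car9. Vegfa, a growth factor of blood vessels, was at 4.39, 4.62 and 4.59 at 3 h and 3.06, 2.99 and 3.10 at 24 h (2.79-fold lower), and Car9, a carbonic anhydrase, fell 3.49-fold.

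The windows before the starts of Ankrd37 and Bnip3 are shown as genes of this group that rose, with matches to ACGTG, the core of the HIF element, in capitals on either strand. They lie at chr8:45999851-46000100 and chr7:138909507-138909756 (GRCm38.p6, RefSeq, both on the minus strand).
Ankrd37: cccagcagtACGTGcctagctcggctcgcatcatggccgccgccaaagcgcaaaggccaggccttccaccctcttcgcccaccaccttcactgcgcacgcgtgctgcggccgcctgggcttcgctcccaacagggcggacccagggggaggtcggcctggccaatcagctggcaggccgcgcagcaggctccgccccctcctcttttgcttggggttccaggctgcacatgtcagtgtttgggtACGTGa
Bnip3: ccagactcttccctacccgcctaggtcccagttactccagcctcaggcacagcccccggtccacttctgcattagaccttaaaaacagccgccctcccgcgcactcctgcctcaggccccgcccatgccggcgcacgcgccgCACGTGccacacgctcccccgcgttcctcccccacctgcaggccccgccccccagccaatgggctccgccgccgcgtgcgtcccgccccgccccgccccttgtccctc
Matches were present in 12 of 21 hypoxia genes and 10 of 24 glycolysis genes with a promoter in the table, beside 16.6% of all promoters.

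Enzymes and transporters of glycolysis, which turns glucose into pyruvate and lactate, rose in 16 of 25 cases and fell in 3, with a median of 0.60. Slc16a3, which exports lactate, was at 5.46, 5.35 and 5.43 at 3 h and 7.53, 7.53 and 7.40 at 24 h (4.21-fold, adjusted p = 1.01e-06). Ldha, the enzyme that makes lactate, was at 9.31, 9.40 and 9.33 and 10.81, 10.83 and 10.74 (2.73-fold). Pfkl, a phosphofructokinase, rose 3.73-fold, Tpi1 3.54-fold, and Pdk1, which inhibits pyruvate dehydrogenase, 3.47-fold. The members that fell included Ldhb, which favors the use of lactate (2.20-fold), and the hexokinase Hk3.

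Mitochondrial respiration genes showed smaller differences in the other direction. Of 37 genes of oxidative phosphorylation 26 fell and none rose, with a median of -0.39, and 2 were called higher after quantile normalization or scaling to all spike-in probes. Ndufs8, a subunit of complex I, fell 3.06-fold, from 3.66, 3.59 and 3.65 to 2.05, 2.09 and 1.93, and Atp5a1, a subunit of ATP synthase, 2.06-fold. In the TCA cycle 15 of 23 members fell and 4 rose (median -0.36). Suclg2, a subunit of succinyl-CoA ligase, fell 2.37-fold. Those that rose included Pcx, which feeds the cycle from pyruvate (3.04-fold), and Irg1, which makes itaconate (1.84-fold, from 7.50, 7.54 and 7.52 to 8.40, 8.44 and 8.37).

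Targets of NRF2, the inducer of antioxidant and detoxifying enzymes, rose in 20 of 25 cases and fell in 3, with a median of 0.88. Nqo1, a quinone reductase, was at -1.34, -1.58 and -1.34 at 3 h and 2.02, 2.23 and 1.81 at 24 h, a rise of 3.44 ± 0.14 (10.9-fold, adjusted p = 2.34e-06), with a control mean of -1.26. Gclc, which makes the precursor of glutathione, rose 5.33-fold, and Slc7a11, which imports cystine for it, 2.71-fold. Hmox1, which degrades heme, was at 9.09, 9.14 and 9.11 and 10.03, 10.01 and 9.97 (1.85-fold). The falls were of Nfe2l2, which encodes NRF2 (1.64-fold), of G6pdx (1.96-fold) and of Osgin1 (1.98-fold). Among genes of iron handling 7 of 17 rose and 6 fell, with 3 higher and 9 lower after median scaling. Cp, a ferroxidase, fell 3.50-fold, although its second probe was not called.

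Lipid genes were divided. Of 24 genes for cholesterol synthesis and uptake 8 rose and 8 fell, with 12 and 6 after quantile normalization but 2 and 8 after median scaling. Insig1, which restrains synthesis, fell 2.58-fold, from 1.90, 1.78 and 1.77 to 0.44, 0.33 and 0.59. Of 21 genes for cholesterol export and targets of the oxysterol receptor LXR 9 fell and 3 rose. Lpl, lipoprotein lipase, was at 7.94, 7.93 and 7.98 at 3 h and 5.00, 4.93 and 5.03 at 24 h (7.81-fold lower, adjusted p = 4.22e-07). Nr1h3, which encodes LXRα, fell 2.94-fold and the exporter Abcg1 2.69-fold, whereas the exporter Abca1 was not called, at 4.11, 4.01 and 4.16 and 4.54, 4.10 and 4.12.

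Genes of the cell cycle were mostly lower at 24 h. Of 44 genes of mitosis and cell cycle control 32 fell and 3 rose (median -1.08), and of 47 DNA replication genes 35 fell and 6 rose (median -0.66). Ccnd1, which encodes cyclin D1 of early G1 phase, was at 4.64, 4.68 and 4.58 at 3 h and -0.71, -0.37 and 0.37 at 24 h, a fall of 4.87 ± 0.24 (29.2-fold, adjusted p = 5.73e-06), with a control mean of 3.21. Ccna2, cyclin A of S and G2 phase, was at 0.42, 0.54 and 0.21 and -3.94, -3.63 and -4.59 (21.7-fold), with only 1 of 3 Ph24h arrays well above background. Rrm2, the regulated subunit of ribonucleotide reductase, was at 2.25, 2.52 and 2.31 and -1.31, -1.23 and -1.34 (12.6-fold). Control means of Ccna2 and Rrm2 were -0.85 and 0.93, between both fed groups. Cenpa, the histone variant of centromeres, fell 12.2-fold, Top2a, a topoisomerase, 10.2-fold and Mcm5, a subunit of the replicative helicase, 7.27-fold.

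The mitotic genes that rose included Cdc20 and Kif2c, but a second probe for Kif2c was called lower (a difference of -1.33). Inhibitors of cyclin-dependent kinases and targets of p53 were also mostly lower, with 22 of 28 falling, 4 rising and a median of -0.53. Gadd45b, a stress-induced gene, fell 5.52-fold, Cdkn1c, which encodes p57, 4.96-fold, and Cdkn1a, which encodes p21, 2.15-fold, from 5.37, 5.48 and 5.51 to 4.40, 4.39 and 4.26. Cdkn2b, which encodes p15, was among those that rose (1.89-fold). In the BCL2 family of apoptosis regulators 10 of 16 fell and 1 rose. Bbc3, which encodes the pro-apoptotic PUMA, fell 1.97-fold, and the one that rose was the pro-survival Bcl2l2 (1.60-fold, its other probe not called).

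The window before Ccnb2, cyclin B2, is shown for its repeated CCAAT boxes, which are common before mitotic genes. It lies at chr9:70421555-70421804 (GRCm38.p6, RefSeq, minus strand), with CCAAT in capitals on either strand.
Ccnb2: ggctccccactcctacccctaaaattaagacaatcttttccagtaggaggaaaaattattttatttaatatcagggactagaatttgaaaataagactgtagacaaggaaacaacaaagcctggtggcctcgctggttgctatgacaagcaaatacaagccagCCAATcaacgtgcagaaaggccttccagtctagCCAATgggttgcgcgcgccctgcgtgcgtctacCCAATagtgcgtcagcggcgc
Ccnb2 was at 2.51, 2.48 and 2.36 at 3 h and -0.72, -0.47 and -0.49 at 24 h (8.03-fold lower). Its 3 matches compare with at least 1 match in 26 of 37 mitotic genes with a promoter in the table and in 34.5% of all promoters.

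Genes for protein synthesis and folding changed by smaller amounts. Of 32 ribosome biogenesis genes 24 fell and 1 rose (median -0.40), of 20 aminoacyl-tRNA synthetases 13 fell and none rose (median -0.45), and after quantile normalization 2 of the synthetases were higher. Ncl, nucleolin, fell 1.78-fold and Eprs, which charges the tRNAs of glutamate and proline, 2.57-fold. The fall of 12 of 41 ribosomal protein genes depended on the scaling, with 31 lower after median scaling and none after scaling to all spike-in probes. Targets of ATF4 and of the unfolded protein response fell in 19 of 34 cases and rose in 4. Nupr1, a stress-induced cofactor, fell 2.63-fold and Ppp1r15a, which lifts the block on translation, 2.32-fold, but Pdia4, a folding enzyme of the endoplasmic reticulum, was at 1.62, 1.65 and 1.53 at 3 h and 3.93, 3.88 and 3.79 at 24 h (4.81-fold higher). Heat shock proteins fell in 13 of 29 cases and rose in 3 (20 and none after median scaling, 11 and 7 after quantile normalization, 5 and 5 after scaling to all spike-in probes), and the proteasome fell in 12 of 35 and rose in 3, with none higher and 26 lower after median scaling but 6 higher and 3 lower after scaling to all spike-in probes.

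**Figure D3:**
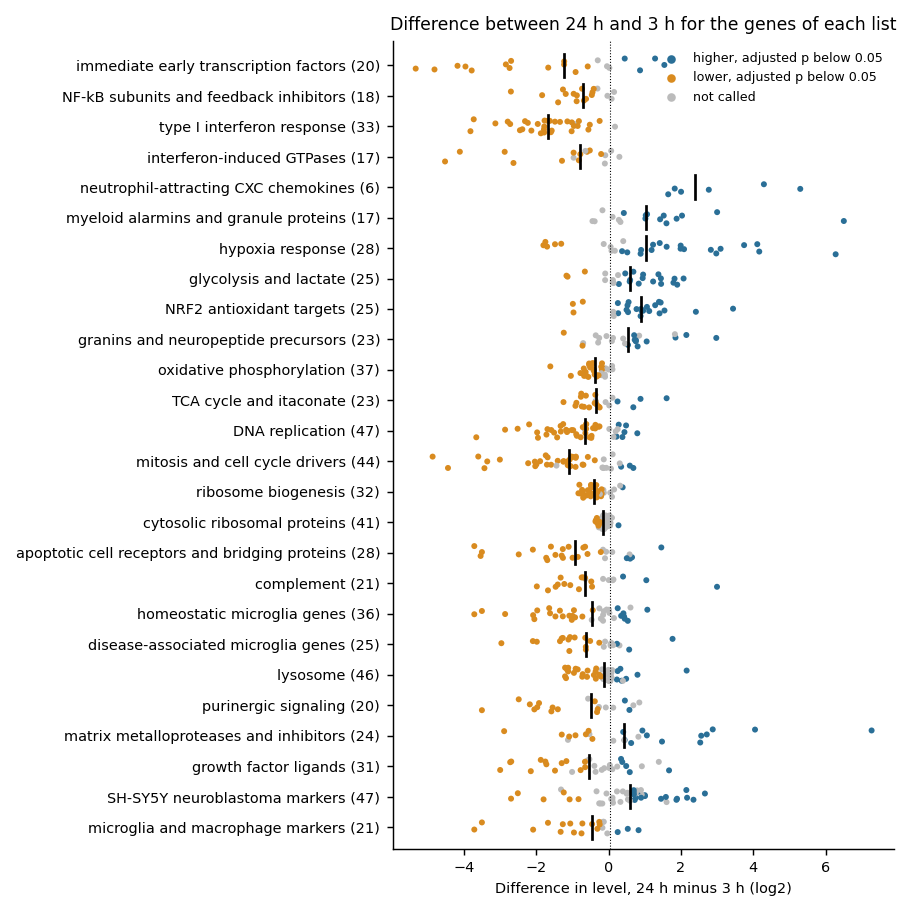
Difference in level between Ph24h and Ph3h (horizontal axis, log2) for each measured gene of the lists named on the left, with the number of genes in parentheses; blue points were called higher, orange points lower and gray points were not called, black bars mark the median of each list and the dotted line the median of all genes tested (0.04). The interferon and cell cycle lists lie mostly left of the line and the neutrophil-attracting chemokines, hypoxia and NRF2 lists mostly right of it.

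Receptors and bridging proteins that recognize apoptotic cells were lower at 24 h in 19 of 28 cases and higher in 4, with a median of -0.92. Mertk and Axl are receptor kinases that bind phosphatidylserine through bridging proteins. Mertk was at 2.60, 2.57 and 2.68 at 3 h and 0.92, 1.07 and 1.07 at 24 h (3.02-fold lower, adjusted p = 2.76e-06), with a control mean of 2.69. Axl was at 2.57, 2.48 and 2.71 and 0.55, 0.48 and 0.46 (4.27-fold lower, adjusted p = 4.34e-06), with a control mean of 2.35. All Ph24h arrays lay below all other arrays for both. The bridging proteins Gas6 and Pros1 fell 1.99-fold and 2.77-fold. Cx3cr1, the receptor for the neuronal chemokine fractalkine, was at 1.53, 1.89 and 1.41 at 3 h and -2.40, -2.09 and -1.82 at 24 h (13.1-fold lower, adjusted p = 5.06e-06). P2ry6, a receptor for uridine diphosphate, fell 5.60-fold. P2ry12 was well above background on all control and Ph3h arrays and on no Ph24h array, a fall of at least 2.86-fold. Trem2, a lipid-sensing receptor, fell 2.40-fold. Thbs1, a bridging protein, rose 2.75-fold, and Cd300a, Cd36 and Cd300lf were the others that rose.

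Complement genes were lower in 13 of 21 cases and higher in 3 (median -0.65). C1qa, a chain of the recognition molecule C1q, was at 6.38, 6.51 and 6.68 at 3 h and 4.78, 4.88 and 4.89 at 24 h (3.20-fold lower), and Itgax, a chain of a complement receptor, fell 3.96-fold. C1s1, a protease of the classical pathway, rose at least 6.01-fold against Ph3h arrays on which it was not above background, and was above background on all control arrays. Among Fc and scavenger receptors 11 of 19 fell and 5 rose. Fcgr1, the high-affinity activating receptor, fell 6.53-fold from 2.80, 2.71 and 2.85 to -0.07, 0.21 and 0.10, while Fcgr2b, the inhibitory receptor, rose 3.47-fold from 0.51, 0.58 and 0.68 to 2.37, 2.46 and 2.32. Mrc1, the mannose receptor, fell 5.53-fold.

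Lysosomal genes changed less, with 20 of 46 lower, 7 higher and a median of -0.12, which was above 0 after scaling to all spike-in probes. Lgmn, a lysosomal endopeptidase, fell 2.30-fold and Atp6v0a1, a subunit of the proton pump, 2.26-fold. The cathepsin Ctsb was not called (a difference of 0.06), and Ctsk, a collagen-degrading cathepsin, rose 4.46-fold, from 3.21, 3.03 and 3.02 to 5.33, 5.26 and 5.16. In purinergic signaling, through which microglia sense nucleotides, 12 of 20 genes fell and 2 rose (median -0.47). Entpd1, the ectoenzyme that degrades ATP, fell 3.92-fold and P2rx5, a channel, 4.53-fold, each with 2 of 3 Ph24h arrays well above background.

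Genes typical of homeostatic microglia were lower in 18 of 36 cases and higher in 7, and genes of the disease-associated state were lower in 15 of 25 and higher in 3 (medians -0.45 and -0.63). Slc2a5, a fructose transporter, and Aif1, which encodes the marker Iba1, fell 7.27-fold and 4.25-fold, but Slc2a5 was well above background on only 1 Ph24h array. Aif1 was at 9.38, 9.04 and 9.24 at 3 h and 7.11, 7.17 and 7.13 at 24 h, with a control mean of 7.87. Tmem119, a marker of resident microglia, rose 1.44-fold, from -0.18, 0.03 and -0.14 to 0.64, 0.31 and 0.35, but was not called after median scaling or on slide 1 alone. Mef2a rose 2.10-fold by its brightest probe, but the other 2 probes for it were called lower. Of the disease-associated genes Lpl and Axl fell most, Ccl6 rose 3.41-fold, and Gpnmb was not called, at 8.52, 8.70 and 8.62 at 3 h and 8.56, 8.57 and 8.41 at 24 h.

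Transcription factors of the macrophage lineage fell in 15 of 27 cases and rose in 6 (median -0.61). Pparg, a nuclear receptor of lipid metabolism, was at 3.18, 3.08 and 3.19 at 3 h and 0.34, 0.23 and 0.23 at 24 h (7.38-fold lower, adjusted p = 6.46e-07). Spi1, which encodes PU.1, fell 1.65-fold, and Cebpd, an acute-phase factor, rose 4.75-fold, from 3.57, 3.84 and 3.69 to 5.83, 6.07 and 5.95, with a control mean of 6.61. Of 21 genes for Toll-like receptors and their adaptors 8 rose and 7 fell, with 5 and 9 after median scaling. Tlr4, which senses bacterial lipopolysaccharide, was at 0.78, 0.73 and 0.75 at 3 h and 2.22, 2.28 and 2.18 at 24 h (2.77-fold higher), whereas Tlr2 was at 8.10, 8.004 and 8.05 and 6.52, 6.51 and 6.46 (2.94-fold lower).

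Of 24 antigen presentation genes 11 were lower and 4 higher, with 14 and 3 after median scaling but 7 and 8 after scaling to all spike-in probes. H2-Ab1, the β chain of an MHC class II molecule, was at -1.07, -1.04 and -0.86 at 3 h and 3.00, 2.91 and 2.90 at 24 h, a rise of 3.92 ± 0.08 (15.2-fold, adjusted p = 4.44e-07), and its other probe was called higher too. The α chain H2-Aa was above background on no fed array, so that no fold is given, H2-Eb1 was not called (a difference of 0.25), and Cd74, the invariant chain of the same molecules, fell 1.27-fold, which was not called after scaling to all spike-in probes. Cd83 and Cd86, surface proteins of antigen-presenting cells, fell 14.6-fold and 3.32-fold, although a second probe for Cd86 was not called, and Cd1d1, which presents lipids, rose 6.20-fold.

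Arginine metabolism changed at several steps. Beside Arg1, Arg2 rose 3.29-fold, and Nos2, the inducible nitric oxide synthase that uses the same substrate, was at 1.68, 1.56 and 1.52 at 3 h and 3.96, 3.57 and 3.68 at 24 h (4.44-fold, adjusted p = 8.97e-06). The arginine transporter Slc7a2 rose 5.72-fold and the transporter Slc7a1 fell 4.89-fold, from 4.61, 4.47 and 4.50 to 2.32, 2.18 and 2.22. Odc1, which makes the first polyamine, fell 2.68-fold, and Azin1, which protects it, 3.41-fold. In the list of nitric oxide and polyamine genes 7 of 17 rose and 6 fell, with 5 and 9 after median scaling. Of 20 genes of alternative activation 5, Arg1 and Arg2 among them, rose and 8 fell (6 and 5 after scaling to all spike-in probes), and Il4ra, a chain of the interleukin-4 receptor, fell 3.89-fold.

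**Figure D4:**
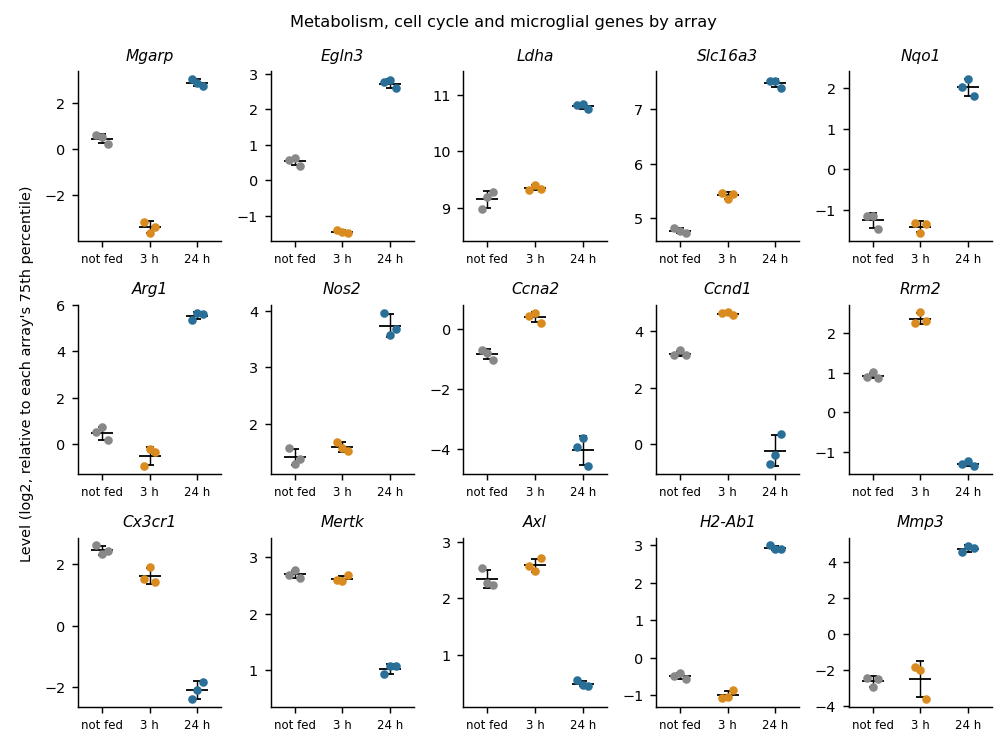
Levels of 15 genes of metabolism, the cell cycle, phagocytosis and secretion on each array (points; vertical axis, log2 relative to the array's 75th percentile, scaled per gene) in microglia not fed (gray), fed for 3 h (orange) and fed for 24 h (blue), with bars for the mean ± SD of 3 arrays. Mgarp and Egln3 are lowest at 3 h and highest at 24 h, while Ccna2, Ccnd1, Rrm2, Cx3cr1, Mertk and Axl are lowest at 24 h.

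Matrix proteases and their inhibitors rose in 12 of 24 cases and fell in 7. After Mmp3 the largest rises were of Mmp10, a second stromelysin, at -1.95, -1.94 and -2.19 at 3 h and 2.10, 2.08 and 1.88 at 24 h (16.6-fold, adjusted p = 8.56e-07), and of Serpinb2, an inhibitor of plasminogen activation (7.36-fold). Plau, the urokinase that activates plasminogen, fell 7.40-fold, from 0.63, 0.82 and 0.65 to -2.05, -2.32 and -2.20. Of 31 growth factor ligands 13 fell and 5 rose. Tgfb3, a transforming growth factor, fell 7.99-fold, Hbegf and Nrg1, ligands of EGF receptors, 6.59-fold and 4.44-fold, and Cyr61, a matrix-bound factor, 6.46-fold, to well above background on 1 Ph24h array. Tgfb1 was at 3.82, 3.95 and 3.96 at 3 h and 3.23, 3.33 and 3.21 at 24 h (1.57-fold lower, adjusted p = 0.000145).

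Of the prostaglandin genes 8 of 20 rose and 6 fell, with 7 and 8 after median scaling. Ptger2, a receptor for prostaglandin E2, rose 4.93-fold, and Pla2g4a, which releases arachidonic acid, 2.83-fold. Ptgs2, the inducible cyclooxygenase, was at 3.83, 3.99 and 3.88 at 3 h and 4.49, 4.83 and 4.63 at 24 h (1.68-fold), with a control mean of 0.15. Hpgd, which degrades prostaglandins, fell at least 3.29-fold and was above background on no Ph24h array. Alox5, which makes leukotrienes, fell 3.45-fold. In the Notch and Wnt pathways 12 of 26 genes rose and 4 fell, with 6 and 4 after median scaling. Dll4, a Notch ligand, was above background on no control array and rose 3.41-fold, from 0.06, 0.11 and -0.28 to 1.92, 1.65 and 1.64, and the Wnt receptor Fzd1 rose 2.81-fold.

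Granins and precursors of neuropeptides rose in 10 of 23 cases and fell in 2, with a median of 0.54. Vgf, which encodes a secreted neuropeptide precursor, was at 10.34, 10.48 and 10.39 at 3 h and 11.21, 11.17 and 10.996 at 24 h, a rise of 0.72 ± 0.18 (1.65-fold, adjusted p = 0.014), against a control mean of -2.49. Vgf was not called after quantile normalization, after median scaling, in the authors' value table or on slide 1 alone. Npy, neuropeptide Y, was at 4.92, 4.94 and 4.94 and 7.10, 7.12 and 7.03 (4.44-fold), and Nmu, neuromedin U, rose 3.60-fold, from 1.57, 1.70 and 1.68 to 3.59, 3.58 and 3.32, with a control mean of -4.71. Cck and Penk, precursors of cholecystokinin and enkephalin, were the pair that fell, 2.36-fold and 1.65-fold.

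Transcripts typical of the fed neuroblastoma cells changed between both times as well. Of 47 SH-SY5Y markers measured on the mouse probes 18 rose and 6 fell, with a median of 0.60. A summed level is the log2 of the added intensities of a list, in which the brightest genes weigh most. It was 10.7 to 10.8 on Ph3h arrays, 11.3 to 11.5 on Ph24h arrays and 5.50 to 5.55 on control arrays. Such a sum does not show that the list moved as a whole. In all, 14 of the 47 were well above background on all 6 fed arrays and on no control array, against 1.11% of all genes tested. Lmo1, a transcriptional cofactor, was at 0.10, 0.41 and 0.37 at 3 h and 2.68, 2.64 and 2.61 at 24 h (5.09-fold, adjusted p = 6.21e-06) with a control mean of -6.74. Mycn, an oncogenic transcription factor of neuroblastoma, rose 1.86-fold and was above background on no control array. Rtn1 and Slc18a1 fell 5.70-fold and 6.49-fold, and Rtn1 was well above background on only 1 Ph24h array. In the granin list 4 members (Calca, Cartpt, Chga and Scg2) were likewise above background on all fed arrays and no control array. The study reports low homology of most array probes to human transcripts. It also reports degraded RNA and no new transcription in apoptotic SH-SY5Y cells, and proposes that only microglial changes were detected. The part of RNA from the fed cells in these values, and in the neuropeptide, cell cycle and other genes above, was not tested here.

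Markers of other brain and blood cells gave no common direction. Of 16 astrocyte markers 2 rose and 2 fell, and Slc1a3, Sox9 and S100b were above background on no fed array. S100b was nevertheless among those called, so its call rests on signal near background, and it was lost under 5 alternatives. Oligodendrocyte markers were lower in 5 of 13 cases and higher in 3, with a summed level of 8.73 to 8.93 on Ph3h and 7.75 to 7.97 on Ph24h arrays. Of 13 neuron markers 3 rose and 2 fell, and of 15 markers of fibroblasts and endothelium 2 rose and 4 fell. Of 8 lymphocyte, mast cell and neutrophil markers 2 rose and 1 fell. After median scaling 1 rose and 2 fell in the neuron list and in the last one, and after scaling to all spike-in probes 4 of the fibroblast and endothelial markers rose and 3 fell. Over microglia and macrophage markers the summed level was 12.2 to 12.3 on Ph3h arrays, 11.8 to 11.9 on Ph24h arrays and 11.8 to 11.9 on control arrays, with 14 of 21 lower at 24 h and 3 higher.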

How the data were processed

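RNA of 9 samples was hybridized to Agilent 60-base mouse arrays in 1 color, and only the 3 Ph24h and 3 Ph3h arrays entered the contrast. The deposited scanner files hold, per the file headers, processed green intensity values from Agilent Feature Extraction 10.7.3.1, which had subtracted the background on each array without scaling between arrays. A second deposited file gives, for 36655 probes, the authors' own log2 values centered per probe, with normalization not given in the sources used here, which served as an alternative. The study's regression over 3 time points was replaced by the single contrast described. Intensities were put on the log2 scale, spots that the scanner software marked as outliers or non-uniform were dropped, spots of a probe were averaged and the array's 75th percentile over non-control probes was subtracted. Kept were probes that stood well above background on any of the 9 arrays (34381 of 55681), and the brightest probe stood for each of 24101 genes, named as in the scanner files. Another kept probe was present for 3411 of the called genes, and in 234 it was called the opposite way. limma 3.58.1 (R 4.3.3) fitted all 9 arrays with lmFit and eBayes, Benjamini-Hochberg adjusted p below 0.05 was called, and the fit was tested on simulated data. A gene above background on no array of a group has a fold of at least the bright group's mean over the lowest signal well above background, or the dim probe's own value where higher. The study's methods give 3 independent experiments, and the labels do not say which cultures the replicates came from, so p-values measure the spread between these samples.

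Named genes were the 12 largest rises and 12 largest falls without overlap between groups, up to 4 called members per list by size, and Vgf, Mmp3, Csf3, Il1b, Il6, Tnf and Tgfb1. Some genes that fall under this rule are not reported here. The members and lists were chosen with earlier results of these data known. Named after their values were seen were Abca1, Aoc1, Arg2, Azin1, Bcl2l2, Bhlhe40, Bnip3, Calca, Car9, Cartpt, Ccnb2, Cd300a, Cd300lf, Cd36, Cd74, Cdc20, Cdkn1a, Cdkn2b, Chga, Chn2, Csf1r, Ctsb, Cxcr3, Elane, Fos, Fosl1, G6pdx, Gas6, Gm5416, Gpnmb, H2-Aa, H2-Eb1, Hif1a, Hk3, Hmox1, Ier3, Ifitm3, Ifnb1, Il4ra, Irg1, Jun, Junb, Kif2c, Ldha, Ldhb, Lypd6b, Mef2a, Mertk, Myc, Mycn, Ndrg1, Nfe2l2, Nfkbia, Ngp, Nr4a3, Oas1g, Odc1, Osgin1, Pdgfb, Penk, Pf4, Pla2g4a, Ppbp, Ppp1r15a, Pros1, Ptgs2, S100a9, Scg2, Slc1a3, Sox9, Spi1, Spib, Sprr2d, Sprr2e, Sprr2g, Thbs1, Tmem119, Top2a, Trem2, Uts2b and Vegfa. Promoters came from RefSeq (GRCm38.p6), for 27025 genes. Alternatives were other scalings, background correction, filters, probe rules, sample sets, blocks, a variance trend and leaving out each array.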

Additional observations from a re-analysis of the deposited data

How the results depend on the processing

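With 3 arrays per group the number of arrays limits the precision, and time since feeding and time in culture cannot be told apart. Genes near background have only a bound at one time. Against 10692 genes called here, the totals were 9131 to 11420 under the other scalings, background corrections, filters, probe rules, sample sets, blocks and variance models, except for 7849 on slide 1 alone, and 9451 to 10435 when each array was left out in turn. With an array left out, genes called higher ranged from 4186 to 4823 and genes called lower from 5180 to 5624. Of the 10692 calls, 8268 (median scaling) to 10331 (variance trend) were shared in the settings that tested all of them, 7331 on slide 1 alone and 9064 to 10140 when each array was left out. The directions moved with the scaling. After median scaling 2489 genes were higher and 8505 lower (22.6% higher against 46.0%), and after scaling to all spike-in probes 6788 were higher and 3375 lower (66.8% higher). Leaving out 1 spike-in probe that departed from the rest, an alternative chosen after seeing the data, gave 4278 and 4853 (46.9% higher). The median over all genes was 0.04 here, -0.22 after median scaling and 0.23 after scaling to all spike-in probes. On slide 1 alone, with 2 arrays per group, 3572 genes were higher and 4277 lower. No gene called here was called in the opposite direction under any alternative, apart from 2 under the stricter filter and 47 with the mean over probes. Of 55 gene lists the median of 39 kept its sign under each of the 6 other scalings and value sources and that of 16 did not. Those 16 included the MAP kinase phosphatases, the interleukin-1 system, the tumor necrosis factor superfamily, Toll-like receptors, lysosome, proteasome and ribosomal proteins. The following differences changed sign. After median scaling the difference was -0.0070 for Csf2ra (0.26 here), -0.10 for Abca1 (0.16), -0.0121 for Csf1r (0.25), -0.21 for Ctsb (0.06), -0.0150 for H2-Eb1 (0.25), -0.0866 for Ifitm3 (0.18) and -0.18 for Nfkbia (0.08), and after scaling to all spike-in probes it was 0.0875 for Gpnmb (-0.10). With the mean over probes it was -0.0133 for Camk2a (0.47 here), -0.32 for Kif2c (0.68) and -0.24 for Mef2a (1.07), the last called lower (adjusted p = 0.0153 in limma). Among genes named by the rule, Camk2a lost its call under 18 alternatives and Vgf under 4. The cause was not tested.

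Replicates with the same number did not deviate together (Pearson r over genes of -0.015, 0.005 and -0.012 for numbers 1, 2 and 3). Whether samples of the same number came from the same experiment cannot be told from these values. The third replicate of every group was also on a slide of its own. With the replicate number as a block 10062 genes were called, 4566 higher and 5496 lower, and 9712 of the 10692 calls were shared. With the slide as a block 10627 genes were called.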

Other observations

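Genes measured well above background at only 1 of the 2 fed times, and chosen, apart from Stab2, after their values were seen, included families outside the lists. Sprr2g, Sprr2e and Sprr2d, small proline-rich proteins known from the cornified layer of epithelia, were above background on all Ph24h arrays and on no control or Ph3h array. Sprr2g was at -5.02, -5.85 and -5.99 at 3 h and 0.79, 0.81 and 0.55 at 24 h. It rose at least 29.2-fold, Sprr2e at least 13.9-fold and Sprr2d at least 12.7-fold. The Sprr2 genes passed the filter through the Ph24h arrays alone, so a rise was fixed by the choice and no p-value is given. These genes belong to the same family and their probes were not compared, so that the probes may share transcripts. Gm5416, listed by RefSeq as Csta3 and a further stefin A gene, rose at least 35.3-fold, and Lypd6b, a membrane-anchored protein, at least 18.9-fold.

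In the other direction Spib, a relative of the transcription factor PU.1, was at -0.17, -0.60 and -0.32 at 3 h and -5.72, -5.80 and -5.43 at 24 h, with a control mean of -2.32, and fell at least 10.6-fold (adjusted p = 8.41e-07). Stab2, a scavenger receptor, fell at least 8.39-fold and Cxcr3, the receptor of Cxcl10, at least 7.63-fold, both from levels above background on all control and Ph3h arrays. Uts2b, a urotensin-like peptide, fell at least 7.68-fold, Chn2, a regulator of the GTPase Rac, at least 6.40-fold, and Aoc1, which oxidizes diamines, at least 6.07-fold. Aoc1 was above background on no control array and on all Ph3h arrays. A second probe for Stab2 was not called.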
